A study of Mus musculus with 4 samples.

Results

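Respiratory complex I is represented in the deposited table by 43 rows whose gene symbol starts with Nduf, out of 22138 rows in all. They were taken by symbol alone. Of these rows, 36 are genes of the nuclear-encoded subunits and 4 are genes of assembly factors (Ndufaf1 to Ndufaf4). The other 3 rows are described apart: Ndufa4, which is now assigned to complex IV, its paralog Ndufa4l2, and a second row named Ndufb8. All 43 rows passed the filter on low values, which asked for an average of 0.5 RPKM or more. RPKM values are read numbers scaled to transcript length and sequencing depth. Comparisons of levels between genes rest on the transcript lengths the authors used, and those between libraries on their scaling: the sum of all RPKM was 359700 and 362800 in the controls and 377800 and 390500 after Hnrnpk siRNA.

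Complex I is the entry enzyme of the respiratory chain. It passes electrons from NADH to ubiquinone and pumps protons across the inner mitochondrial membrane. The matrix arm holds the N module, where NADH is oxidized, and the Q module, where ubiquinone is reduced, and the membrane arm holds the proton channels. A small core of subunits does the chemistry and is conserved from bacteria, with part of it encoded by mitochondrial DNA, while the accessory subunits surround the core and are needed for assembly and stability. Assembly factors help to build the enzyme and are absent from the finished complex. Mouse embryonic stem cells use respiration as well as glycolysis.

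The cells were TT2 embryonic stem cells, a mouse line that the labels give as female and of C57BL/6xCBA strain, grown without feeders in medium with serum and LIF, a cytokine that keeps such cells undifferentiated. One group received control siRNA (n = 2 libraries) and the other Hnrnpk siRNA (n = 2), each as 100 nM and then 50 nM after 24 hours, with harvest about 72 hours after the second dose. The protein made from Hnrnpk, hnRNP K, binds RNA and DNA, and the series title concerns its part in silencing by the histone methyltransferase SETDB1. The comparison is a transient knockdown in 1 cell line, the siRNA sequences are not known here, and the design text calls the replicates biological without saying whether they were separate cultures. If they were not, the p-values below measure only the spread between these libraries, which may be technical.

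The targeted gene, Hnrnpk, had 236 and 226 RPKM with control siRNA against 68.0 and 70.5 RPKM with its own siRNA. Its log2 change was -1.73, with an SE of 0.0629 (limma adjusted p = 6.59e-08). The relative depth of the libraries, from the smallest steps between low values, was 1 and 0.986 for the controls and 0.893 and 0.881 for the treated libraries. Of the embryonic stem cell markers, all 8 were expressed, 2 were called higher and 2 lower. Nanog rose from 204 and 190 RPKM to 353 and 342 RPKM and Dppa5a by a log2 change of 0.83, while Sox2 fell from 231 and 195 RPKM to 147 and 146 RPKM and Tdgf1 by a log2 change of -0.24. Pou5f1 had 287 and 301 RPKM against 245 and 286 RPKM and was not called. Of the fibroblast markers, 3 were tested: Thy1 was called lower (6.9 and 5.2 against 2.22 and 2.28 RPKM), as was Col1a1, and Pdgfra, also a marker of primitive endoderm, was called higher (0.191 and 0.148 against 0.835 and 0.961 RPKM). The other 3, Col1a2, Col3a1 and Postn, stayed at or under 0.0791 RPKM, and the summed level of the 6 was 9.64 and 8.12 RPKM in the controls and 4.85 and 5.16 RPKM after Hnrnpk siRNA. Markers of other states moved with the treatment. The primitive endoderm list summed to 5.2 and 5.17 RPKM in the controls and to 30.3 and 30.9 RPKM after Hnrnpk siRNA, with 5 of 5 tested rows called higher. The trophectoderm list went from 28.9 and 34.9 to 63.1 and 68.1 RPKM, with 4 of 4 tested members called higher, while Elf5 stayed at or under 0.109 RPKM. The list of the 2-cell-like state went from 0.639 and 0.636 to 42.7 and 50.0 RPKM, with 7 of 7 called higher. Over all genes tested, 32.2% were called higher. Each of these 7 averaged 0.186 RPKM or less in the controls, as did Pdgfra (0.17 RPKM). They passed the filter of 0.5 RPKM only through the treated libraries, so a call of these rows could only be higher. The part of cells in such states in the complex I values was not tested. In bulk RNA a change in the number of cells of a type cannot be told apart from a change of RNA per cell.

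After Hnrnpk siRNA, more subunit genes of complex I were called higher than lower, all by small amounts. Of the 36, 18 were called higher, 2 were called lower and 16 were not called; a call needs an adjusted p under 0.05 by limma, adjusted over the 12486 genes tested. Of all genes tested 67.2% were called, 32.2% higher and 35.0% lower, against 50.0% and 5.56% of the subunit genes. The largest rises were those of Ndufa5 and Ndufab1, by a ratio of mean RPKM of 1.55 and 1.58, and the 2 falls were those of Ndufv1 and Ndufa10, by a ratio of 0.783 and 0.825. The median log2 change of the subunit genes was 0.17, beside -0.015 over all genes tested, with members from -0.35 to 0.62. None of the 36 reached a log2 change of 1 in size, which 8.51% of all genes tested did with a call.

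In 21 of the 36 subunit genes the lower treated library exceeded the higher control, in 4 the reverse held, and the groups overlapped in 11. Over all genes tested, 41.2% lay above and 43.5% below in this way. The count of genes called higher rested in part on 1 library and on the filter. It was 11 without Hnrnpk siRNA replicate 2 and 7 with no filter on low values. With each library scaled to its RPKM sum, 15 subunit genes were called higher and 4 lower, and with quantile normalization 14 and 4. Each call draws on a spread that limma shares between genes, because permuting 2 against 2 libraries exactly can reach no p smaller than 0.333.

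**Figure D1:**
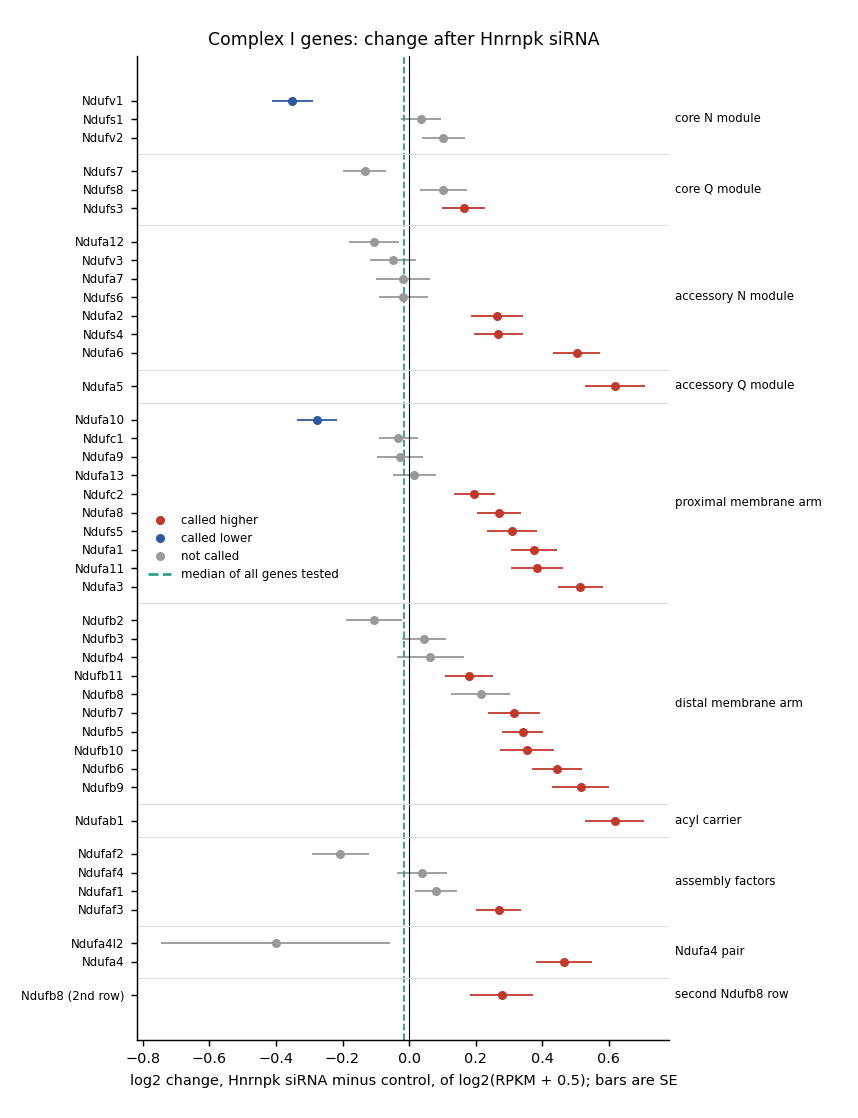
Log2 change of 42 of the 43 complex I rows after Hnrnpk siRNA (horizontal axis, on the log2(RPKM + 0.5) scale, bars are SE), grouped by place in the enzyme. Red points were called higher, blue points lower and grey points not called, and the dashed line is the median of all genes tested (-0.015); among the subunit groups the red points lie mainly in the accessory ones.

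The 7 nuclear-encoded core subunits carry the flavin, the iron-sulfur clusters and the ubiquinone pocket, and most of them were not called. Though not called, Ndufv2, Ndufs7 and Ndufs8 had groups that did not overlap. Only 1 of the 7 was called higher and 1 lower (14.3% each), beside 32.2% and 35.0% of all genes tested. Ndufv1, which binds NADH and the flavin at the tip of the matrix arm, stood at 70.1 and 69.7 RPKM in the controls and at 53.3 and 56.2 RPKM after Hnrnpk siRNA. Its groups were far apart, and limma gave a log2 change of -0.35 with an SE of 0.0618 (adjusted p = 0.000719). Ndufv2, an iron-sulfur subunit next to it, had 72.7 and 74.9 RPKM against 76.7 and 82.0 RPKM, and Ndufs1, which carries further clusters, had 72.9 and 74.8 RPKM against 76.7 and 74.7 RPKM. Neither was called, with adjusted p of 0.177 and 0.62. The N module core therefore held 1 gene that fell beside 2 with log2 changes of 0.10 and 0.04.

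In the core of the Q module, Ndufs3, a scaffold subunit, rose from 27.5 and 26.9 to 29.6 and 31.5 RPKM (log2 change 0.16, limma adjusted p = 0.0453). That call is near the threshold and was lost under 8 of the 15 alternative settings, each of the 4 that leave out 1 library among them, with adjusted p from 0.00351 to 0.317. Ndufs3 also shares 75.7% of its transcript with the processed pseudogene Gm12251, so its level is uncertain. Ndufs7, an iron-sulfur subunit at the ubiquinone site, had 58.9 and 62.7 RPKM against 54.1 and 56.6 RPKM (log2 change -0.13, limma adjusted p = 0.0929). Its groups did not overlap, and it was called lower with quantile normalization and with scaling to the RPKM sum, at an adjusted p down to 0.00842. With GC trends removed its log2 change was 0.07 (limma adjusted p = 0.394). Ndufs8, the other iron-sulfur subunit of the module, had 116 and 120 RPKM against 120 and 134 RPKM (log2 change 0.10, limma adjusted p = 0.226), and was called higher with GC trends removed (adjusted p = 0.0215).

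Of the 29 accessory subunit genes, 17 were called higher and 1 lower (58.6% and 3.45%), beside 32.2% and 35.0% of all genes tested. Their median log2 change was 0.26. Within them, the 7 genes of the N module had a median of -0.02, and the proximal and distal membrane arms had 0.23 and 0.26. The core genes had a median of 0.04. The difference between core and accessory genes was not tested. The summed level of the accessory genes was 2339 and 2375 RPKM in the controls and 2619 and 2924 RPKM after Hnrnpk siRNA. That of the core genes was 590 and 593 RPKM against 575 and 611 RPKM, so the core sums overlapped between groups and the accessory sums did not.

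In the N module, 3 of 7 accessory genes were called higher and none lower. The share called higher was 42.9%, beside 32.2% higher and 35.0% lower over all genes tested. Ndufa6, a LYR-motif protein that docks an acyl carrier on the matrix arm, rose from 132 and 128 RPKM to 175 and 193 RPKM, with a log2 change of 0.50 and an SE of 0.0699 (limma adjusted p = 0.000163), and its call held under all 15 alternatives. Ndufs4, whose loss causes a Leigh-like disease in mice, rose from 56.1 and 60.1 RPKM to 66.0 and 74.2 RPKM (log2 change 0.27, limma adjusted p = 0.0097). Its call was lost without Hnrnpk siRNA replicate 2 and with no filter. Ndufa2, with a thioredoxin-like fold, rose from 148 and 157 RPKM to 172 and 196 RPKM (log2 change 0.26, limma adjusted p = 0.0123), a call lost under 5 of the 15 alternatives. The other 4 had overlapping groups. Ndufs6, a zinc-binding subunit, had 119 and 121 RPKM against 111 and 127 RPKM. Ndufa7 had 131 and 130 RPKM against 118 and 140 RPKM, a spread of 15 RPKM (SD) between the Hnrnpk siRNA libraries. Ndufa12 and Ndufv3 had log2 changes of -0.10 and -0.05, and Ndufa12 was called lower under 2 of the 15 alternatives.

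Ndufa5, the accessory subunit of the Q module, had the largest log2 change of all subunit genes. It stood at 15.8 and 18.8 RPKM in the controls and at 25.5 and 28.0 RPKM after Hnrnpk siRNA, with no overlap (log2 change 0.62, SE 0.0897, limma adjusted p = 0.000213). The gene lies on chromosome 6 from 24518666 to 24528013 of GRCm38, minus strand. With no filter on low values its adjusted p was 0.0502, just past the threshold. Ndufab1, the mitochondrial acyl carrier protein, which sits in both arms of the enzyme and also serves fatty acid and iron-sulfur cluster synthesis, followed at nearly the same size. It rose from 6.15 and 6.45 RPKM to 9.17 and 10.8 RPKM (log2 change 0.62, SE 0.0885, limma adjusted p = 0.0002). It lies on chromosome 7 from 122085403 to 122101886, minus strand, and shares 13.5% of its transcript with processed pseudogenes. Its call held under all 15 alternatives.

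The proximal membrane arm and its junction with the matrix arm held 10 genes, of which 6 were called higher and 1 lower. Those called higher made up 60.0%, beside 32.2% higher and 35.0% lower over all genes tested. Ndufa3, a small single-span subunit, rose from 70.9 and 66.8 RPKM to 95 and 102 RPKM (log2 change 0.51, SE 0.0669, limma adjusted p = 0.000106), the lowest adjusted p of any subunit gene. Ndufa1, another single-span subunit, encoded on the X chromosome, rose from 102 and 107 RPKM to 129 and 142 RPKM (log2 change 0.37). Ndufa11, related to the inner-membrane translocase family, rose from 51.5 and 48.9 RPKM to 60.8 and 70.8 RPKM (log2 change 0.38). In each of these 3 genes both Hnrnpk siRNA libraries were above both controls. Ndufa8 and Ndufs5, which face the intermembrane space, and Ndufc2 rose by log2 changes of 0.27, 0.31 and 0.20 (limma adjusted p = 0.00486, 0.00526 and 0.019). The Ndufc2 call was lost under 6 of the 15 alternatives, that of Ndufs5 with no filter and without Hnrnpk siRNA replicate 2, and those of Ndufa8 and Ndufa11 with no filter.

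Ndufa10, a membrane-arm subunit related to nucleoside kinases, went the other way. It had 100 and 103 RPKM in the controls and 83.6 and 84.2 RPKM after Hnrnpk siRNA, with no overlap (log2 change -0.28, SE 0.0605, limma adjusted p = 0.00271). Its call, like that of Ndufv1, held under all 15 alternatives, with log2 changes from -0.36 to -0.21. Ndufa10 lies on chromosome 1 from 92439010 to 92473860 and Ndufv1 on chromosome 19 from 4007384 to 4012806, both on the minus strand of GRCm38. The remaining members of the arm were not called. Ndufa9, at the junction of the arms, had 172 and 175 RPKM against 162 and 179 RPKM, and Ndufa13 and Ndufc1 had log2 changes of 0.02 and -0.03. With quantile normalization Ndufa9 was called lower (log2 change -0.16, limma adjusted p = 0.0373). With GC trends removed Ndufa13 was called higher (log2 change 0.24, limma adjusted p = 0.00522). For Ndufa13, 30.0% of exonic bases overlap Tssk6 on the other strand.

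In the distal membrane arm, which pumps protons, 6 of 10 genes were called higher and none lower. The share called higher was 60.0%, beside 32.2% higher and 35.0% lower over all genes tested. Ndufb9, a LYR-motif subunit that docks the acyl carrier on this arm, was the most abundant subunit gene. It rose from 216 and 235 RPKM to 299 and 348 RPKM (log2 change 0.52, SE 0.0856, limma adjusted p = 0.000501), and with no filter on low values its adjusted p was 0.0598. It lies on chromosome 15 from 58933756 to 58939488, plus strand, and 19.5% of its exonic bases overlap another annotated gene on the same strand. Ndufb6 rose from 106 and 105 RPKM to 134 and 153 RPKM (log2 change 0.44, limma adjusted p = 0.000547) and Ndufb5 from 54.4 and 55.3 RPKM to 68.0 and 71.3 RPKM (log2 change 0.34, limma adjusted p = 0.000847). These 2 calls held under all 15 alternatives, though 39.0% of the exonic bases of Ndufb6 overlap Smim27 on the other strand, and whether the counting used strand is not given. Ndufb10 and Ndufb7, on the intermembrane side, rose by log2 changes of 0.35 and 0.32 (limma adjusted p = 0.00327 and 0.00487). Both calls were lost with no filter, and that of Ndufb7 also without Hnrnpk siRNA replicate 2. Ndufb11, on the X chromosome, had the weakest call (log2 change 0.18, limma adjusted p = 0.0472), lost under 8 of the 15 alternatives.

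The 4 distal genes that were not called spanned a wide range of levels. Ndufb3 had 113 and 112 RPKM against 111 and 121 RPKM. Ndufb4 had 12 and 11.9 RPKM against 11.1 and 14.0 RPKM, and Ndufb2 had 7.66 and 8.57 RPKM against 7.16 and 7.85 RPKM. In all 3 the groups overlapped. Ndufb8 had 59.5 and 62.0 RPKM against 63.9 and 77.9 RPKM, with no overlap (log2 change 0.21, limma adjusted p = 0.0555), and was called higher under 5 of the 15 alternatives. Ndufb3 and Ndufb4 share 37.0% and 40.2% of their transcripts with processed pseudogenes, as do Ndufb11 (50.0%), Ndufs5 (46.9%), Ndufs6 (37.9%) and Ndufa12 (36.2%), so the levels of these genes are uncertain.

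**Figure D2:**
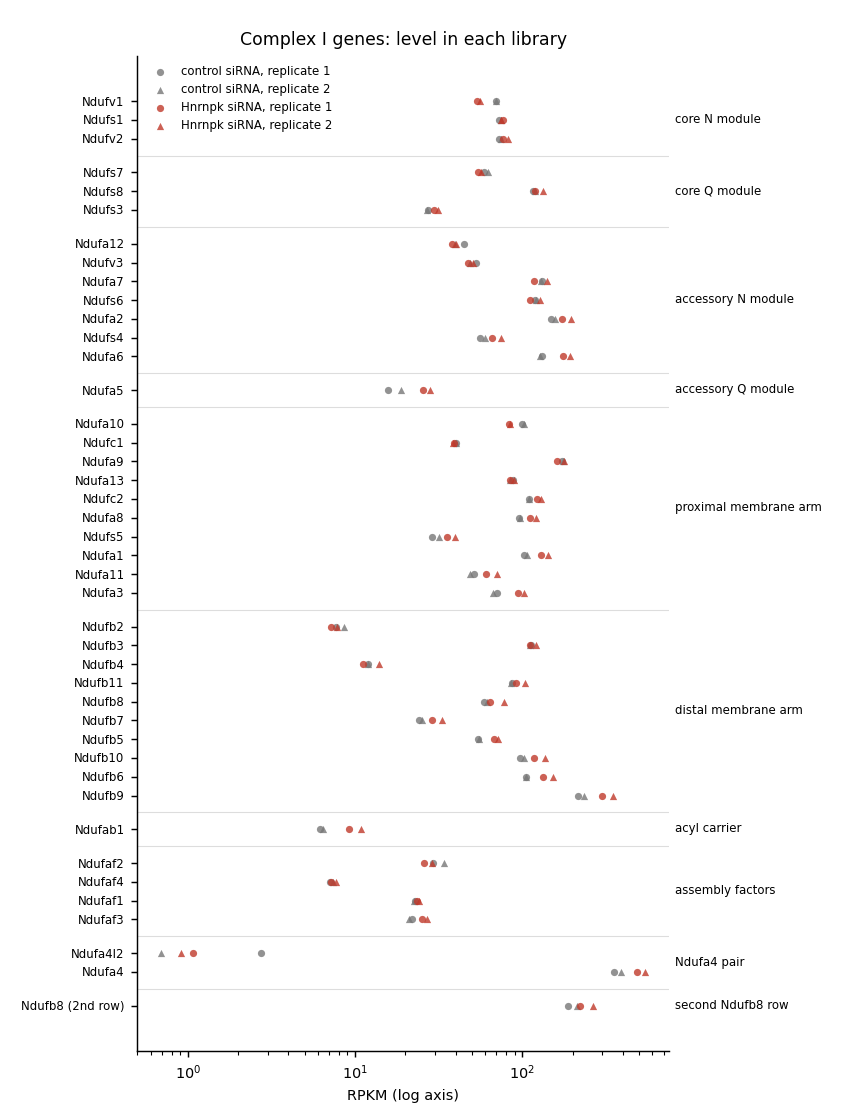
RPKM of 42 of the 43 complex I rows in each of the 4 libraries (horizontal log axis), grouped by place in the enzyme; grey symbols are control siRNA and red symbols Hnrnpk siRNA, circles replicate 1 and triangles replicate 2. Subunit levels in the controls run from 6.3 RPKM (Ndufab1) to 226 RPKM (Ndufb9), and red and grey symbols are separated most clearly for Ndufa5, Ndufab1, Ndufa3, Ndufa6 and Ndufb9.

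The 4 assembly factor genes of the Nduf series stood lower than most subunit genes and moved little. Ndufaf3, which acts with Ndufaf4 early in building the Q module, was the only one called, rising from 22.0 and 20.9 RPKM to 25.1 and 26.8 RPKM (log2 change 0.27, SE 0.0674, limma adjusted p = 0.00573). Without Hnrnpk siRNA replicate 2 its adjusted p was 0.0583. Its partner Ndufaf4 had 7.1 and 7.36 RPKM against 7.2 and 7.66 RPKM, with overlapping groups (log2 change 0.04). Ndufaf1, which helps to assemble the membrane arm, had 22.8 and 22.4 RPKM against 23.6 and 24.3 RPKM (log2 change 0.08, limma adjusted p = 0.28). Ndufaf2, a chaperone of the late assembly intermediate, had 29.4 and 34.2 RPKM against 26.0 and 28.9 RPKM (log2 change -0.21, limma adjusted p = 0.0559). It was called lower under 5 of the 15 alternatives, and 65.6% of its exonic bases overlap a noncoding gene on the other strand. The median log2 change of the 4 was 0.06, and it changed sign with scaling to the RPKM sum (-0.03) and with GC trends removed (-0.01).

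Ndufa4, long counted with complex I and now assigned to complex IV, was the most abundant row of all 43. It rose from 353 and 391 RPKM to 484 and 543 RPKM (log2 change 0.46, SE 0.0841, limma adjusted p = 0.000867), and with no filter on low values its adjusted p was 0.0663. Ndufa4l2, a paralog known for its induction in hypoxia, was the lowest row and the least reproducible. It had 2.73 RPKM in control replicate 1 but 0.696 RPKM in control replicate 2, and 1.07 and 0.913 RPKM after Hnrnpk siRNA, so both treated libraries lay between the controls. It was not called, with an adjusted p of 0.324 by limma for a log2 change of -0.40 (SE 0.343). It became 0.32 (adjusted p = 0.0109) without control replicate 1 and -1.12 (adjusted p = 1.7e-07) without control replicate 2. The second Ndufb8 row (ENSMUSG00000091471) had 188 and 213 RPKM against 223 and 265 RPKM (log2 change 0.28, limma adjusted p = 0.0245). GENCODE M21 names this gene Gm20538, and 100% of its 225 exonic bases overlap Ndufb8 or Sec31b on the same strand, so it is no independent measure of Ndufb8. Its call was lost under 6 of the 15 alternatives.

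Summed over the 36 subunit genes, the level was 2929 and 2968 RPKM in the controls and 3193 and 3535 RPKM after Hnrnpk siRNA. The group values were 2949 ± 27.9 RPKM and 3364 ± 241 RPKM (SD, n = 2 each), a ratio of 1.14. The exact two-sided permutation test gave p = 0.333, the smallest value that 2 against 2 libraries allow. As a share of all RPKM in the library the subunits took 0.814% and 0.818% in the controls and 0.845% and 0.905% after Hnrnpk siRNA. The 2 treated libraries thus lay apart from each other by more than the 2 controls did. With libraries scaled to their RPKM sum the ratio was 1.07.

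The gap between the treated libraries ran through nearly the whole set. Hnrnpk siRNA replicate 2 exceeded replicate 1 in 34 of the 36 subunit genes (94.4%), beside 57.8% of all genes tested. The median log2 difference between these replicates was 0.14 in the subunit genes and 0.02 in all genes tested. Between control replicates 2 and 1 it was 0.03 and -0.02. Measured against the control mean, the 29 accessory genes had a median of 0.17 in Hnrnpk siRNA replicate 1 and of 0.35 in replicate 2, and the 7 core genes had 0.02 and 0.07. The direction of the accessory median was the same in both treated libraries.

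**Figure D3:**
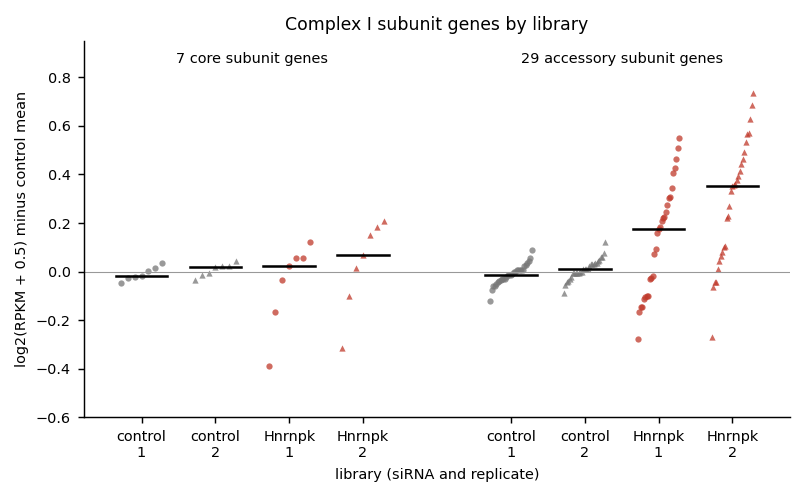
Log2(RPKM + 0.5) of each complex I subunit gene minus its mean over the control libraries (vertical axis), for each library, with core genes on the left and accessory genes on the right; black bars are medians. The accessory medians are 0.17 in Hnrnpk siRNA replicate 1 and 0.35 in replicate 2, while the core medians stay at 0.02 and 0.07.

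Exonic length, counted over all annotated exons of a gene, moved with the changes over all genes tested. The subunit genes are short, with a median exonic length of 1640 bases beside 3610 bases over all annotated genes of the table. The core genes had a median of 2180 bases and the accessory genes one of 1250 bases. The part of length in the difference between core and accessory genes was not tested. Among all genes tested, split into 4 equal groups by length, the shortest group (up to 2678 bases) had a median log2 change of 0.06 and the longest (6666 bases or more) one of -0.08. The 27 subunit genes within the shortest group had a median of 0.16, with 14 called higher of 27, beside 37.3% of all genes of that group. Those in groups 2, 3 and 4, in order of length, numbered 4, 3 and 2, with medians of 0.08, 0.32 and 0.33. Across the 36 subunit genes, Spearman's rho between exonic length and log2 change was -0.32, and over all genes tested it was -0.09. These points share 4 libraries and are no independent replicates. With each library's trend on length removed, 16 subunit genes were called higher and 2 lower, and their median log2 change was 0.10.

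Promoters of the members were compared because many of them moved in the same direction. RefSeq windows on GRCm38.p6, from 250 bases before to 50 after each start, were found for 37 of the 42 genes. Factors known for nuclear genes of respiration were looked up by exact letters on both strands: NRF1 (its palindromic consensus), ETS factors such as GABPA (CCGGAAG) and YY1 (AAGATGGCG). These motifs do not overlap one another in the member windows. The sequences given here lie before the start in both RefSeq and GENCODE M21; capitals mark a motif match. Ndufa11 and Ndufb6 were added after the matches were seen, because they were called higher and hold a match there, Ndufab1 is shown because it had one of the largest rises, and Ndufv1 and Ndufa10 because they were the genes that fell. Window bases of Ndufa5 all lie within its longer GENCODE gene and are not shown.
Ndufa11 promoter, chr17:56717512-56717761, plus strand: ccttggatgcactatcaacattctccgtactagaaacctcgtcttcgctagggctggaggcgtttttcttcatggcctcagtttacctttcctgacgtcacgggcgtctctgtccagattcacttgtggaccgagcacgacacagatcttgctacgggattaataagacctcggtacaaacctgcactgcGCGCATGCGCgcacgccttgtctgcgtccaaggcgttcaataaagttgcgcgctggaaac
Ndufb6 promoter, chr4:40279422-40279671, minus strand: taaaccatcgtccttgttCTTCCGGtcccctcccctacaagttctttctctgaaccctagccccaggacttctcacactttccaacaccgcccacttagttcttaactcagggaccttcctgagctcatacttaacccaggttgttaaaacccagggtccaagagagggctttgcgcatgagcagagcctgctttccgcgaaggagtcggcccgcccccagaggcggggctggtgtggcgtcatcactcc
Ndufab1 promoter, chr7:122101887-122102098, minus strand: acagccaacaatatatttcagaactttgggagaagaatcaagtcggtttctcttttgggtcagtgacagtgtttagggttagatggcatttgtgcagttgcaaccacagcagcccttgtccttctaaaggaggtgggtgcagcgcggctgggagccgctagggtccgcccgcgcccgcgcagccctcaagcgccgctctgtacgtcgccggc
Ndufv1 promoter, chr19:4012807-4013005, minus strand: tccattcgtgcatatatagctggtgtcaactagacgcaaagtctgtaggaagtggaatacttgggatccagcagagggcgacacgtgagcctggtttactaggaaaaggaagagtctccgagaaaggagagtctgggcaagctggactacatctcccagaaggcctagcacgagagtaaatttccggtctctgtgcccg
Ndufa10 promoter, chr1:92473861-92474008, minus strand: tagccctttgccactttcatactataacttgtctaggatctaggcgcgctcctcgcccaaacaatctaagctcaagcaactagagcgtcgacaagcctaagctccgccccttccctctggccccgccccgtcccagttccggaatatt

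The NRF1 letters were present in the windows of 2 of the 37 genes, Ndufa11 and Ndufaf4, and in 1.07% of all genes with windows. In Ndufa11 they begin 60 bases before the start. The ETS letters were present in 5 genes (Ndufaf1, Ndufb6, Ndufb7, Ndufs3 and Ndufs8), or 13.5%, beside 9.93% of all genes. The YY1 letters were present in 5 genes (Ndufa9, Ndufc1, Ndufs4, Ndufs6 and Ndufs7), also 13.5%, beside 1.64% of all genes, and in each of the 5 they begin 23 to 36 bases after the start. Of the 16 subunit genes called higher that have a window, 1 held the NRF1, 3 the ETS and 1 the YY1 letters, and of the 16 other subunit genes 0, 1 and 4 did. The sequences above for Ndufab1, Ndufv1 and Ndufa10 hold none of the 3 motifs, which says only that these letters are not in them.

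Assembly factors named otherwise were called in both directions; whether they differ from the Ndufaf genes was not tested. Of 15 names in this list, 13 rows were matched, 3 of them listed under older symbols, and Coa1 was not analysed here. Atp5sl and Dmac2 in the list name the same gene. Of the 13, 5 were called higher and 7 lower (38.5% and 53.8%), beside 32.2% and 35.0% of all genes tested. Foxred1, which acts in the later steps of assembly, fell from 13.0 and 13.3 RPKM to 6.79 and 7.45 RPKM (log2 change -0.84, SE 0.0752, limma adjusted p = 9.71e-06). Acad9, an acyl-CoA dehydrogenase relative in the assembly complex of the membrane arm, fell from 9.01 and 9.93 RPKM to 5.11 and 5.41 RPKM (log2 change -0.79, limma adjusted p = 2.25e-05). Tmem70, which serves both complex I and ATP synthase, fell from 25.9 and 27.2 RPKM to 15 and 16.6 RPKM (log2 change -0.73, limma adjusted p = 1.9e-05). Tmem126b, a partner of Acad9 in the same assembly complex, rose from 3.87 and 3.97 RPKM to 6.68 and 7.38 RPKM (log2 change 0.77, limma adjusted p = 3.04e-05). Thus 2 proteins of 1 assembly complex had transcripts that moved in opposite directions. The calls of these 4 genes held under all 15 alternatives. The count called higher was 2 without Hnrnpk siRNA replicate 2, 3 with no filter and 3 with scaling to the RPKM sum.

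Another 4 Ndufaf genes were matched by identifier, since the table lists them under older symbols. 2310030N02Rik (Ndufaf6), a factor of early assembly, fell from 16.6 and 16.3 RPKM to 11.6 and 13.1 RPKM (log2 change -0.40, SE 0.0768, limma adjusted p = 0.00119), and its call held under all 15 alternatives. 2310003L22Rik (Ndufaf5), which hydroxylates Ndufs7, and 2410091C18Rik (Ndufaf7), a methyltransferase, had log2 changes of 0.11 and 0.08 and were not called. 1810043H04Rik (Ndufaf8) had 25.6 and 25.2 RPKM against 22.5 and 23.3 RPKM (log2 change -0.15, limma adjusted p = 0.0585), and was called lower under 4 of the 15 alternatives. Over all 21 assembly factors of both kinds, 6 were called higher and 8 lower (28.6% and 38.1%), shares near those of all genes tested (32.2% and 35.0%), with a median log2 change of 0.04.

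**Figure D4:**
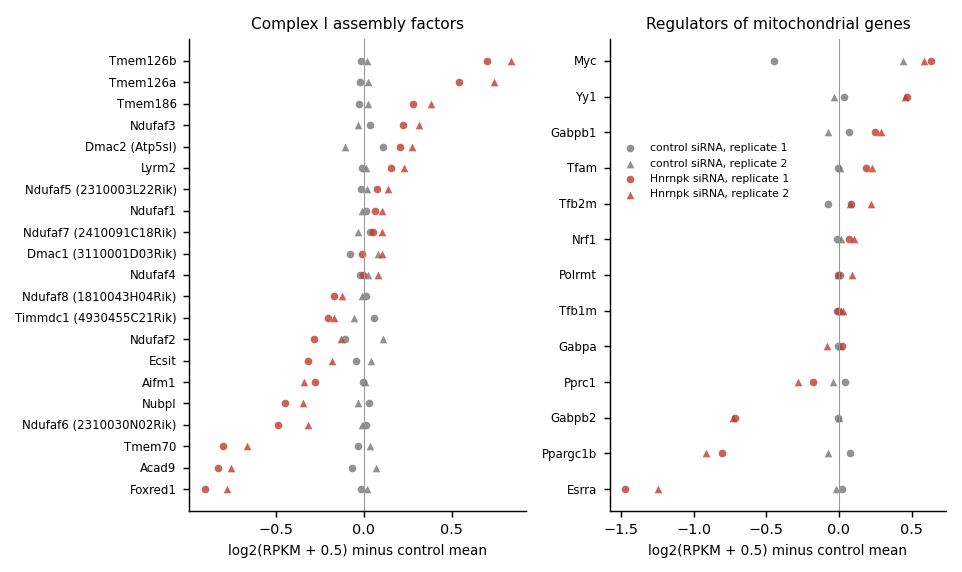
Log2(RPKM + 0.5) minus the control mean (horizontal axis) in each library for the 21 complex I assembly factors (left) and 13 tested regulators of mitochondrial gene expression (right); grey symbols are control siRNA, red symbols Hnrnpk siRNA, circles replicate 1 and triangles replicate 2. Tmem126b lies highest and Foxred1 lowest on the left, and Esrra lowest on the right, with Myc showing the widest gap between control replicates.

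Among 13 tested regulators of mitochondrial gene expression, some acting on nuclear genes and some on mitochondrial DNA, 4 were called higher and 4 lower. These shares, 30.8% each, were near the 32.2% and 35.0% of all genes tested. Esrra is a nuclear receptor that drives nuclear genes of respiration together with PGC-1 coactivators. It fell from 5.64 and 5.47 RPKM to 1.68 and 2.05 RPKM (log2 change -1.36, SE 0.0967, limma adjusted p = 2.51e-06). Ppargc1b, which encodes the coactivator PGC-1 beta, fell from 2.43 and 2.14 RPKM to 1.09 and 0.972 RPKM (log2 change -0.86, limma adjusted p = 4.36e-05). Gabpb2, a subunit of the ETS factor GABP, fell from 5.88 and 5.91 RPKM to 3.39 and 3.36 RPKM (log2 change -0.72, limma adjusted p = 3.13e-05). Yy1, a zinc finger factor, rose from 46.0 and 43.7 RPKM to 62.2 and 61.6 RPKM (log2 change 0.46, limma adjusted p = 0.000128). These 4 calls held under all 15 alternatives. Gabpb1, also of GABP, rose from 10.1 and 9.09 RPKM to 11.5 and 11.8 RPKM (log2 change 0.27, limma adjusted p = 0.0108). Its call was lost with no filter, with scaling to the RPKM sum and without Hnrnpk siRNA replicate 2. Gabpa and Nrf1 were not called (log2 changes -0.03 and 0.09). Gabpb1, Gabpa and Nrf1 were named after their values were seen. Myc, a growth regulator, had 18.3 and 34.3 RPKM against 39.2 and 37.8 RPKM (log2 change 0.61, limma adjusted p = 0.0293), and its call was lost without control replicate 1, without Hnrnpk siRNA replicate 1 and with no filter. Ppargc1a, the gene of PGC-1 alpha, stayed at or under 0.0109 RPKM and was not tested. The count called higher was 2 without Hnrnpk siRNA replicate 2, with no filter and with scaling to the RPKM sum.

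The nuclear genes of complexes II to V, matched by symbol, were the closest neighbours in function. Of 47 tested rows, 19 were called higher and 4 lower, or 40.4% and 8.51% beside 32.2% and 35.0% of all genes tested, with a median log2 change of 0.13. That symbol match also takes in Cox4nb, Atp5s and Atp5sl, which are no subunits of these enzymes. Atp5sl (Dmac2) is among those called higher and is also counted with the assembly factors, and Atp5s is among those called lower. The difference from the complex I genes was not tested. Among the 4 with the lowest p, Cox7b2 rose from 0.39 and 0.416 RPKM to 1.6 and 1.7 RPKM, and Cox4i2 fell from 4.43 and 3.72 RPKM to 1.61 and 1.28 RPKM (log2 changes 1.25 and -1.23). Cox7b2 averaged 0.403 RPKM in the controls, under the filter of 0.5 RPKM. It was therefore tested only through its treated libraries, and its call could only be higher. Atp5g2, which encodes a proton-ring subunit of ATP synthase, rose from 2.87 and 2.59 RPKM to 5.71 and 5.53 RPKM, and Uqcrb of complex III from 99.1 and 103 RPKM to 151 and 167 RPKM (log2 changes 0.92 and 0.65). Here too, Hnrnpk siRNA replicate 2 exceeded replicate 1 in 89.4% of the tested rows.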

How the data were processed

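Gene RPKM values were used as the authors deposited them, in 1 table that gives every library its own column. Per the submitters' processing notes, BWA, SAMtools and genome build mm9 were used; how reads were counted, on which annotation, by strand or not, and what was done with multi-mapping reads is not stated in these sources. On RNA selection the labels disagree, naming rRNA depletion in one field and poly(A) selection in another.

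The 12486 of 22138 genes averaging 0.5 RPKM or more were analysed as log2(RPKM + 0.5), which understates the change of low genes, with limma 3.58.1 in R 4.3.3 (mean-variance trend, two-sided moderated test, no replicate block). Benjamini-Hochberg adjustment ran over the whole set of tested genes, with calls made under 0.05. The 15 alternatives changed the added value, the filter, the scaling, the variance trend, GC and length trends, the replicate block or left out 1 library. The procedure was also run on simulated data with few changed genes and independent noise. These data differ in both, so that run does not vouch for the calls. No count model was used. Depth steps corresponded to denominators of 124200000, 122500000, 110900000 and 109400000 units, reads or pairs. The lowest estimate for a subunit gene in any library was 2022 units.

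Positions, exonic length and GC content came from GENCODE M21 (GRCm38) by gene identifier, for 92.8% of rows and all 43 members, and may differ from the authors' mm9 annotation. The level of a gene depends on the length the authors used. Transcripts were compared with BLAST 2.17.0 (at least 95% identity over 100 bases). Named genes were Hnrnpk, called members without overlap whose log2 change was 0.5 or more in size, the 6 largest changes each way, all Ndufaf and core genes, Ndufa4 and its paralog, copies, and up to 4 called genes of each other list with the lowest p; other members named here, and single genes of the marker lists, were chosen after their values were seen. The values of 1 member are not reported here, though it is included in the counts, medians and sums. Mitochondrially encoded subunits and mitochondrial ribosomal proteins were not analysed here. The members and lists were chosen with earlier results of these data known.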

Additional observations from a re-analysis of the deposited data

How the results depend on the processing

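Of the 20 subunit genes called, 8 kept their call under all 15 alternatives (Ndufa6, Ndufab1, Ndufa3, Ndufa1, Ndufb5, Ndufb6, Ndufv1 and Ndufa10), and 5 more lost it only with no filter. With no filter, the counts called higher were 7 subunits, 3 other assembly factors, 2 regulators and 7 genes of complexes II to V. With scaling to the RPKM sum, 4 subunits and 1 Ndufaf gene were called lower, 3 other assembly factors and 2 regulators higher, and the medians of subunits and Ndufaf genes were 0.09 and -0.03. With quantile normalization, 4 subunits, 1 Ndufaf gene and 8 genes of complexes II to V were called lower. With GC trends removed the Ndufaf median was -0.01, and with length trends removed the subunit median was 0.10. With the replicate block, 19 subunits were called higher and 2 lower, and 1 Ndufaf gene (Ndufaf2) lower, and Ndufa4l2 was called lower (log2 change -0.40, limma adjusted p = 0.0394). The labels do not say that numbers mark a shared culture, and the deviations of same-numbered libraries had a correlation of 0.0267. Scaling moved the split over all genes from 4025 higher and 4371 lower to 3284 and 5159 with the RPKM sum.

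Without 1 library at a time, subunits called higher numbered 11 to 18 and lower 2 to 3, with a median of 0.08 to 0.23. Ndufaf genes called higher numbered 0 to 1 and lower 0 to 1. Other assembly factors called higher numbered 2 to 4, and regulators 2 to 5. The log2 change of Ndufa4l2 ranged from -1.12 to 0.32. The cause of these differences was not tested. For genes outside the Nduf series these alternatives were added after seeing the data. With 2 libraries a group, their number limits every test.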
